A study of Mus musculus with 11 samples.

Results

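The 10 genes Acta2, Myh11, Tagln, Cnn1, Mylk, Smtn, Lmod1, Pdgfrb, Rgs5 and Notch3 mark the mural cells of blood vessels, that is, vascular smooth muscle cells and pericytes. They were found in the table of mouse heart RNA by matching its RefSeq accessions to these symbols, and each symbol had 1 row, so the set is 10 of 21878 rows. All 10 passed the filter of a mean of at least 1 FPKM (a read density, relative to transcript length and library size), which 10891 rows passed. The samples were heart tissue of wild-type female mice. In the 5 samples of the polycystic ovary syndrome (PCOS) group the mice had been exposed before birth to anti-Müllerian hormone (AMH), and in the 6 control samples to vehicle, phosphate-buffered saline. Age, strain, litter and the part of the heart taken are not given in the sources used here. Nor do the labels say whether each sample is a separate mouse; the spread that p-values measure here may therefore be partly technical.

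Smooth muscle shortens when calcium and calmodulin activate myosin light chain kinase, which phosphorylates the light chains of smooth muscle myosin so that it pulls on actin filaments. Most genes of this apparatus are switched on together by serum response factor (SRF) and its partner myocardin, which act through a DNA element called the CArG box. Pericytes wrap capillaries; they are recruited by endothelial platelet-derived growth factor B through the receptor PDGFRB, and NOTCH3 on mural cells receives signals from ligands on the endothelium. In RNA of a whole tissue, fewer cells of a type and less RNA per cell cannot be told apart.

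Whole reads could be recovered from the values, and library totals of these reads ranged from 11866474 to 14346772. Control replicate 6 was unlike the other libraries, with a median Pearson correlation of 0.962 with the rest across tested genes, against 0.987 to 0.993 for the other samples. It also held liver transcripts: 10 liver markers summed to 1868 FPKM there and to between 8.51 and 25.4 FPKM in the other samples. Control replicates 2 and 5 had 6.04 and 8.29 FPKM of Apoe, which encodes apolipoprotein E, where the other samples had 98.8 to 486.3. Results are therefore also given without control replicate 6, and without control replicates 2 and 5 where that changed a direction.

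RefSeq promoter windows (GRCm38.p6, 250 bases before to 50 after an annotated start) were at hand for 7 of the 10 genes: Acta2, Cnn1, Mylk, Smtn, Lmod1, Rgs5 and Notch3. The windows of Acta2, Lmod1 and Rgs5 are shown because Acta2 and Rgs5 were the most abundant of the set, because Acta2 varied apart from the others and because Lmod1 varied with them. They lie at chr19:34255324-34255623 on the minus strand, chr1:135324563-135324862 on the plus strand and chr1:169655251-169655550 on the plus strand. Capitals mark CArG boxes with 1 G or C within the A/T core, and MCAT elements (CATTCC on either strand, the site of TEAD factors); the marked matches do not overlap one another.
Acta2: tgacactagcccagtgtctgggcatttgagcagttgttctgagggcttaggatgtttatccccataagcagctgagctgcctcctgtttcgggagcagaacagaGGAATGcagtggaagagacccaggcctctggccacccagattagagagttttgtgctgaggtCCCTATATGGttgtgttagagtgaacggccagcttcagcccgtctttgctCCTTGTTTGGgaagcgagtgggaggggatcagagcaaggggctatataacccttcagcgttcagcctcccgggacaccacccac
Lmod1: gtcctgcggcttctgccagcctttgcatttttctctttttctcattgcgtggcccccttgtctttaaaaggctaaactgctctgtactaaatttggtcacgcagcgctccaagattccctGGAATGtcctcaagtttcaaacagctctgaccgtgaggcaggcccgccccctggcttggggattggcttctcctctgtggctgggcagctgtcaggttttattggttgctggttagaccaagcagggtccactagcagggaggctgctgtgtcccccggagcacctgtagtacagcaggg
Rgs5: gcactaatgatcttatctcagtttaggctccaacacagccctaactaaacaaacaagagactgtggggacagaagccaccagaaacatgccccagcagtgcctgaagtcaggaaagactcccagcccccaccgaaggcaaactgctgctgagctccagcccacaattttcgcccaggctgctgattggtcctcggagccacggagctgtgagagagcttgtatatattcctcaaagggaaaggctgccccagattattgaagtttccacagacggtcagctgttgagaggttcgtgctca

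The Acta2 window held 2 CArG boxes with 1 G or C in the core, starting at bases 167 and 217 of the window, and none of the other 6 windows held one. Of all 32851 promoter windows of this length, 8.50% held such an element and 1.63% a CArG box with a pure A/T core, which none of the 7 windows held. An MCAT element was present in the windows of Acta2, Mylk, Smtn and Lmod1, that is, 4 of 7, against 14.7% of all windows. The core motif of RBPJ, the DNA-binding partner of Notch (TGGGAA on either strand), was present in those of Acta2, where it overlapped the second CArG element, and Smtn, against 25.6% of all windows. These matches describe letters in a window and are no evidence of binding.

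None of the 10 genes was called different between PCOS and control samples. On log2(FPKM + 1) with limma and Benjamini-Hochberg adjustment over all tested rows, 0 of 10 had an adjusted p under 0.05, where 0.138% of all tested rows did, and 0 of 10 had an unadjusted p under 0.05, where 6.68% did. Limma's voom on the recovered reads also called 0 of 10. The PCOS and control samples overlapped in all 10 genes; 0.698% of tested rows did not overlap. Estimated differences, PCOS minus control, were positive for 8 genes and negative for Cnn1 and Notch3, with a median of 0.13 log2 beside 0.0017 over all tested rows, of which 50.6% were positive. The median was 0.032 without PCOS replicate 5, 0.061 without control replicate 4, 0.0575 without control replicate 5, 0.0757 without PCOS replicate 1 and −0.00486 without control replicates 2 and 5. Other omissions raised it: it was 0.1419 without control replicate 6, with 9 of 10 differences positive, and it was also higher without PCOS replicate 3.

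**Figure D1:**
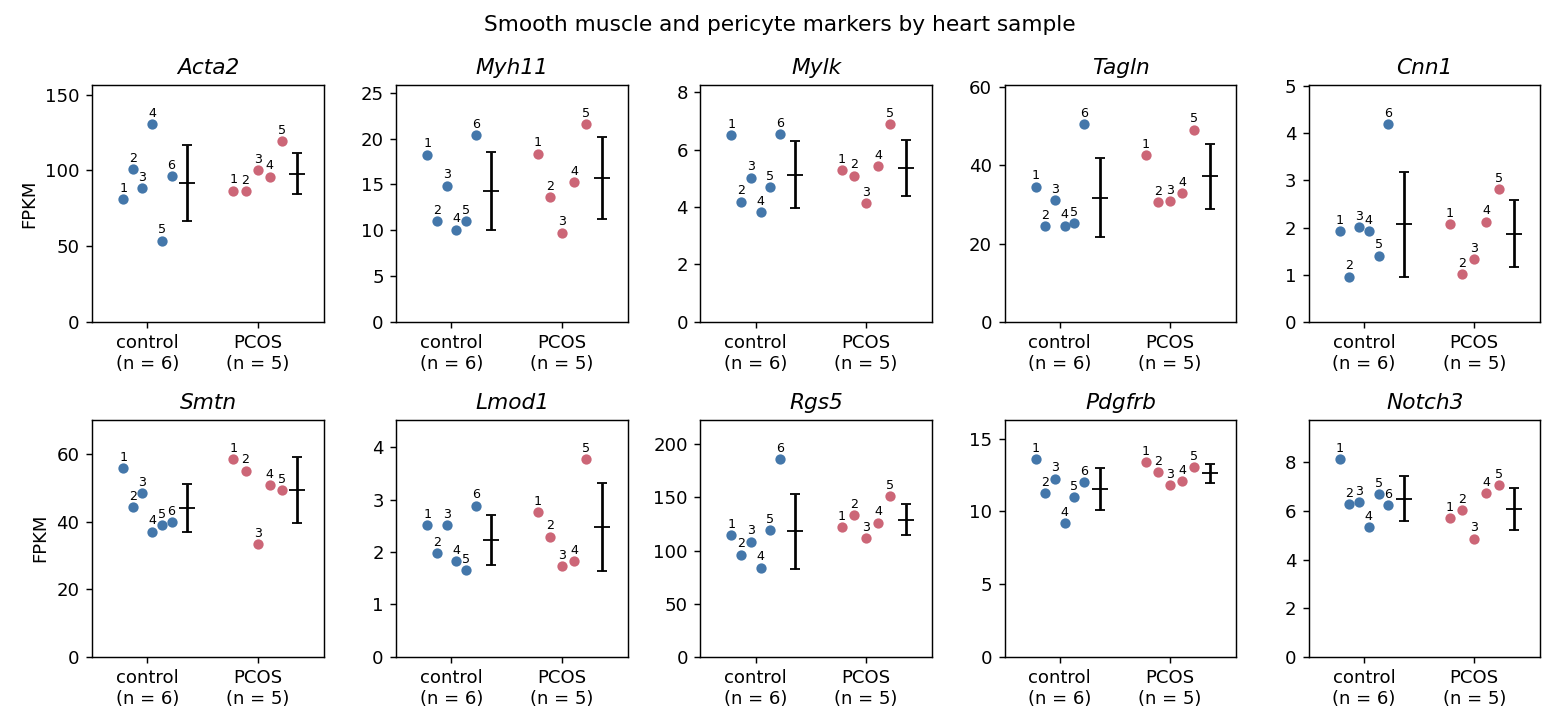
FPKM of each gene (vertical axes, from 0) in the 6 control and 5 PCOS samples; each point is a sample with its replicate number, and the bar beside each group is the mean ± SD. The groups overlap in all 10 panels, and control replicate 6 is the highest control in Myh11, Mylk, Tagln, Lmod1, Cnn1 and Rgs5.

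Among the genes of the contractile filaments, Acta2, which encodes smooth muscle alpha-actin, was the most abundant. It stood at 86.7, 86.6, 100.2, 96.0 and 119.5 FPKM in PCOS replicates 1 to 5, and the controls ran from 53.7 to 130.4 FPKM with a median of 92.5. Both ends of the range were thus control samples, replicate 5 at the bottom and replicate 4 at the top, and every PCOS sample lay between them. Control samples averaged 91.9 ± 25.2 FPKM (SD, n = 6) and PCOS samples 97.8 ± 13.5 FPKM (SD, n = 5), a log2 difference of 0.13 (SE 0.17, 95% interval −0.25 to 0.50, limma adjusted p = 0.858). Without control replicate 5 the difference was −0.0162, and without control replicate 4 it was 0.237. Acta2 lies on chromosome 19 from 34240336 to 34255585 in GRCm38.

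Myh11, the myosin heavy chain of smooth muscle, was at 18.4, 13.6, 9.74, 15.3 and 21.6 FPKM in the PCOS samples. The controls ran from 10.1 to 20.4 FPKM with a median of 12.9. PCOS replicate 3 was below and PCOS replicate 5 above every control, so that the PCOS group alone spanned the whole range. The log2 difference was 0.13 (SE 0.21, 95% interval −0.32 to 0.58, limma adjusted p = 0.879), and it was 0.24 without control replicate 6, 0.0477 without control replicate 4 and 0.0114 without PCOS replicate 5. Mylk, the kinase that phosphorylates the myosin light chain, was at 5.29, 5.09, 4.12, 5.41 and 6.88 FPKM in PCOS and between 3.82 and 6.53 FPKM (median 4.86) in controls. Its log2 difference was 0.06 (SE 0.13, 95% interval −0.23 to 0.35, adjusted p = 0.916); it was 0.12 without control replicate 6, −0.00453 without control replicate 4 and −0.0199 without PCOS replicate 5.

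The actin-binding and regulatory proteins of the filaments followed. Tagln, which encodes transgelin (SM22-alpha), was at 42.6, 30.6, 30.8, 32.9 and 49.2 FPKM in the PCOS samples and between 24.4 and 50.5 FPKM (median 28.2) in controls. All 5 PCOS samples lay above the control median, while the highest value of all was control replicate 6. It had the largest estimate of the set, 31.7 ± 10.1 FPKM (SD, n = 6) against 37.2 ± 8.29 FPKM (SD, n = 5), a log2 difference of 0.25 (SE 0.18, 95% interval −0.15 to 0.65, limma adjusted p = 0.784). Without control replicate 6 it was 0.39 (adjusted p = 0.168), and without PCOS replicate 5 it was 0.143. Tagln overlaps Pcsk7, a proprotein convertase gene at a mean of 4.79 FPKM, on chromosome 9, and the counted strand is not given in the sources used here, so reads from the overlap cannot be assigned with certainty.

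Smtn encodes smoothelin, an actin-associated protein of contractile smooth muscle. It was at 58.5, 55.1, 33.2, 50.9 and 49.3 FPKM in PCOS and between 37.0 and 56.0 FPKM (median 42.0) in controls. PCOS replicate 1 was the highest and PCOS replicate 3 the lowest of all samples. The log2 difference was 0.15 (SE 0.14, 95% interval −0.15 to 0.45, limma adjusted p = 0.809); it was 0.285 without PCOS replicate 3 and 0.085 without PCOS replicate 1.

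Lmod1, leiomodin 1, which nucleates actin filaments in smooth muscle, and Cnn1, calponin 1, which restrains the actin-activated myosin ATPase, were the least abundant genes of the set. Lmod1 was at 2.76, 2.29, 1.73, 1.82 and 3.77 FPKM in PCOS and between 1.65 and 2.88 FPKM (median 2.24) in controls, with PCOS replicate 5 above every control. Its log2 difference was 0.09 (SE 0.15, 95% interval −0.23 to 0.41, limma adjusted p = 0.882); it was 0.15 without control replicate 6, 0.169 without PCOS replicate 3 and −0.0316 without PCOS replicate 5. Cnn1 was at 2.08, 1.01, 1.33, 2.13 and 2.81 FPKM in PCOS and between 0.960 and 4.19 FPKM (median 1.93) in controls. Control replicate 6 had 113 reads of Cnn1, against 27 to 81 in the other samples. The log2 difference was −0.07 (SE 0.22, 95% interval −0.54 to 0.41, adjusted p = 0.949). It turned positive without that library (0.0992), without PCOS replicate 2 (0.0536) and without PCOS replicate 3 (0.000781), and it was −0.079 without control replicates 2, 5 and 6.

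Of the mural cell signalling genes, Rgs5, a regulator of G-protein signalling enriched in pericytes, was the most abundant of all 10. It was at 121.9, 133.6, 112, 126.3 and 151.1 FPKM in PCOS and between 83.8 and 186.1 FPKM (median 111.3) in controls. All 5 PCOS samples exceeded the control median, and control replicate 6 exceeded every PCOS sample. The means were 118 ± 35.8 FPKM (SD, n = 6) and 129 ± 14.6 FPKM (SD, n = 5), a log2 difference of 0.17 (SE 0.16, 95% interval −0.18 to 0.51, limma adjusted p = 0.812). The difference was 0.0789 without control replicate 4, 0.109 without PCOS replicate 5 and 0.31 without control replicate 6 (adjusted p = 0.143). In the fit without control replicate 6, Rgs5 and Tagln were the 2 of 10 genes with an unadjusted p under 0.05, a share to be read beside 19.4% of all tested rows, and 0 of 10 passed the adjusted threshold, beside 0.294% of all tested rows.

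Pdgfrb, the receptor that recruits mural cells to vessels, was the least variable gene of the set. It was at 13.4, 12.7, 11.8, 12.1 and 13.1 FPKM in PCOS and between 9.19 and 13.6 FPKM (median 11.6) in controls. All 5 PCOS samples lay above the control median and below the highest control. Its log2 difference of 0.12 (SE 0.08, 95% interval −0.05 to 0.30, limma adjusted p = 0.762) had the smallest p of the set; it was 0.0667 without control replicate 4. Notch3, the Notch receptor of arterial smooth muscle and pericytes, was at 5.70, 6.04, 4.86, 6.73 and 7.06 FPKM in PCOS and between 5.32 and 8.13 FPKM (median 6.31) in controls. PCOS replicate 3 was below every control, and 2 of 5 PCOS samples were above the control median. Its log2 difference was −0.08 (SE 0.10, 95% interval −0.30 to 0.13, adjusted p = 0.839); it ran from −0.133 without PCOS replicate 5 to −0.0184 without PCOS replicate 3.

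The intervals are those of the fit with all 11 samples. The estimates moved when single samples were left out, so the bounds hold for that fit only. For 9 of the 10 genes the 95% interval lay within a change of 1.5-fold in either direction on the log2(FPKM + 1) scale; for Tagln it reached 1.56-fold. On that scale changes in FPKM are understated, most of all for genes near 2 FPKM, here Lmod1 and Cnn1.

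**Figure D2:**
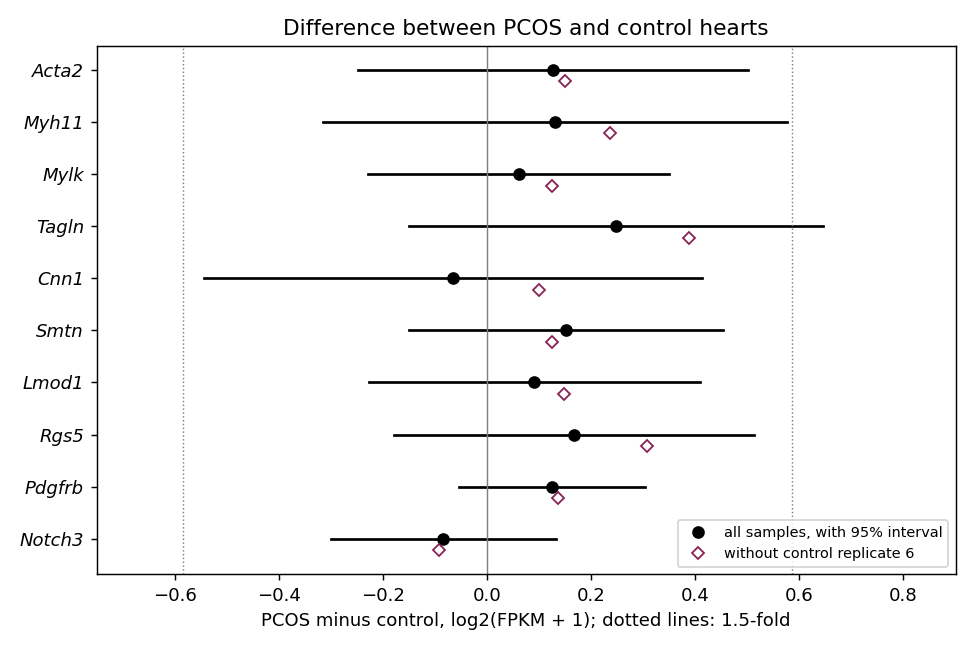
Log2(FPKM + 1) difference, PCOS minus control, for each gene (horizontal axis), with its 95% interval from limma over 11 samples (black) and the estimate without control replicate 6 (open diamonds). Every interval includes 0; without control replicate 6 the estimates of Tagln and Rgs5 are 0.39 and 0.31.

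In level per transcript length the genes fell in the order Rgs5, Acta2, Smtn, Tagln, Myh11, Pdgfrb, Notch3, Mylk, Lmod1 and Cnn1, with medians over the 11 samples from 119.3 FPKM down to 1.93 FPKM. Rgs5 was above Acta2 in 9 of 11 samples, Smtn above Tagln in 10, Myh11 above Pdgfrb in 9, Notch3 above Mylk in 10 and Lmod1 above Cnn1 in 8, and within each of these pairs the ranges overlapped. Acta2 was above Smtn in all 11 samples, although their ranges overlapped as well. Tagln and Myh11, Pdgfrb and Notch3, and Mylk and Lmod1 did not overlap at all. Spread over the 11 samples was 10.4% of the mean for Pdgfrb, 13.9% for Notch3, 21.1% for Acta2, 28.4% for Myh11 and 46.1% for Cnn1. Counting error alone would give 1.68% at the 3531 reads of Acta2's median sample, 2.74% at the 1332 reads of Myh11's and 13.7% at the 53 reads of Cnn1's.

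Between samples, most of the genes went up and down together, and Acta2 did not. Pearson's r of a gene's log2(FPKM + 1) with the mean of the other 9 standardised genes over the 11 samples was 0.985 for Myh11, 0.944 for Mylk, 0.882 for Tagln and 0.864 for Lmod1. It was 0.685 for Rgs5, 0.678 for Pdgfrb, 0.627 for Cnn1, 0.499 for Smtn and 0.457 for Notch3. For Acta2 it was −0.00778, and −0.0585 after each group was centred on its own mean. In control replicate 4 Acta2 stood at 1.51 SDs and the mean of the other 9 genes at −1.22 SDs. In control replicate 5 they stood at −2.37 and −0.608 SDs. These controls pull the r of Acta2 in opposite directions, and its value without either of them is not given here. Over the 36 pairs without Acta2 the median r was 0.629, the closest pair being Myh11 and Mylk at 0.946 and the loosest Cnn1 and Smtn at 0.0183. Over the 9 pairs with Acta2 the median was −0.0654, with a range of −0.33 to 0.287. These values describe 11 samples, within each of which all genes share the depth and tissue makeup of 1 library. The median over all 45 pairs was 0.574, and 0.60 without control replicate 6. Without that library, r with the mean of the others was 0.748 for Pdgfrb, 0.713 for Smtn, 0.664 for Rgs5, 0.592 for Cnn1, 0.509 for Notch3 and −0.034 for Acta2. The pair Cnn1 and Smtn was then at 0.277.

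**Figure D3:**
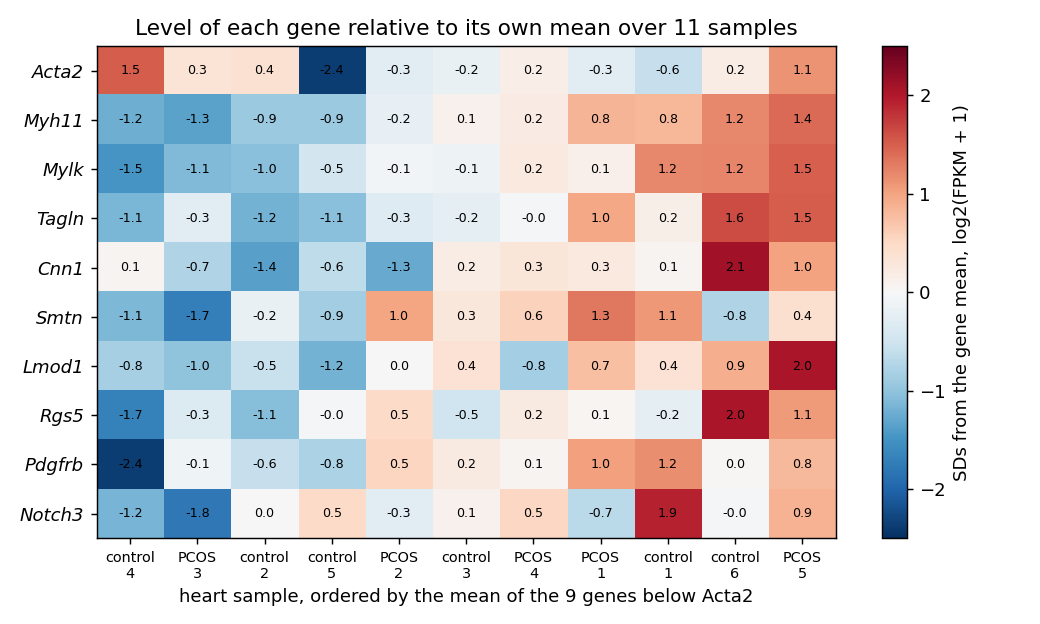
Level of each gene (rows) in each sample (columns), in SDs of log2(FPKM + 1) from the gene's own mean over 11 samples; columns are ordered by the mean of the 9 genes other than Acta2. Control and PCOS samples are interleaved, and Acta2 is at 1.5 SDs in control replicate 4, where Mylk and Pdgfrb have their lowest values.

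The shared level did not sort the samples by group. The mean over the 10 standardised genes ran from −0.948 to 0.854 SDs in controls and from −0.809 to 1.17 SDs in PCOS. PCOS replicate 5, control replicate 6 and control replicate 1 were the highest 3 samples, and control replicate 4, PCOS replicate 3 and control replicate 5 the lowest 3. In PCOS replicate 5 all 10 genes were above their own median, and it held the highest values of Myh11, Mylk and Lmod1. In control replicates 2, 4 and 5 and in PCOS replicate 3, 1 of 10 genes was above its median. Control replicate 4 held the lowest Mylk, Pdgfrb and Rgs5 of all samples and at the same time the highest Acta2.

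Ratios within a sample show the same contrast, since each compares 2 levels per length in 1 library. Tagln to Myh11 stayed between 1.89 and 3.17, whereas Acta2 to Myh11 ran from 4.45 in control replicate 1 to 12.9 in control replicate 4. Acta2 to Tagln ran from 1.91 in control replicate 6 to 5.30 in control replicate 4. Among the pericyte genes, Rgs5 to Pdgfrb ran from 8.41 to 15.5, the highest in control replicate 6. Its means were 10.2 ± 2.75 (SD, n = 6) in controls, that library included, and 10.2 ± 0.971 (SD, n = 5) in PCOS. Of the other controls only replicate 5 lay above the median over the 11 samples, 9.48. Of the PCOS samples only replicate 1 lay below it. Rgs5 to Notch3 was likewise highest in control replicate 6, at 29.9. The means were 18.3 ± 5.82 (SD, n = 6) in controls, that library included, and 21.3 ± 1.58 (SD, n = 5) in PCOS. Every other control lay below the median over the 11 samples, 18.8, and no PCOS sample did. This difference in ratio was not tested. Pdgfrb itself lay close to its median over all samples in control replicate 6.

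**Figure D4:**
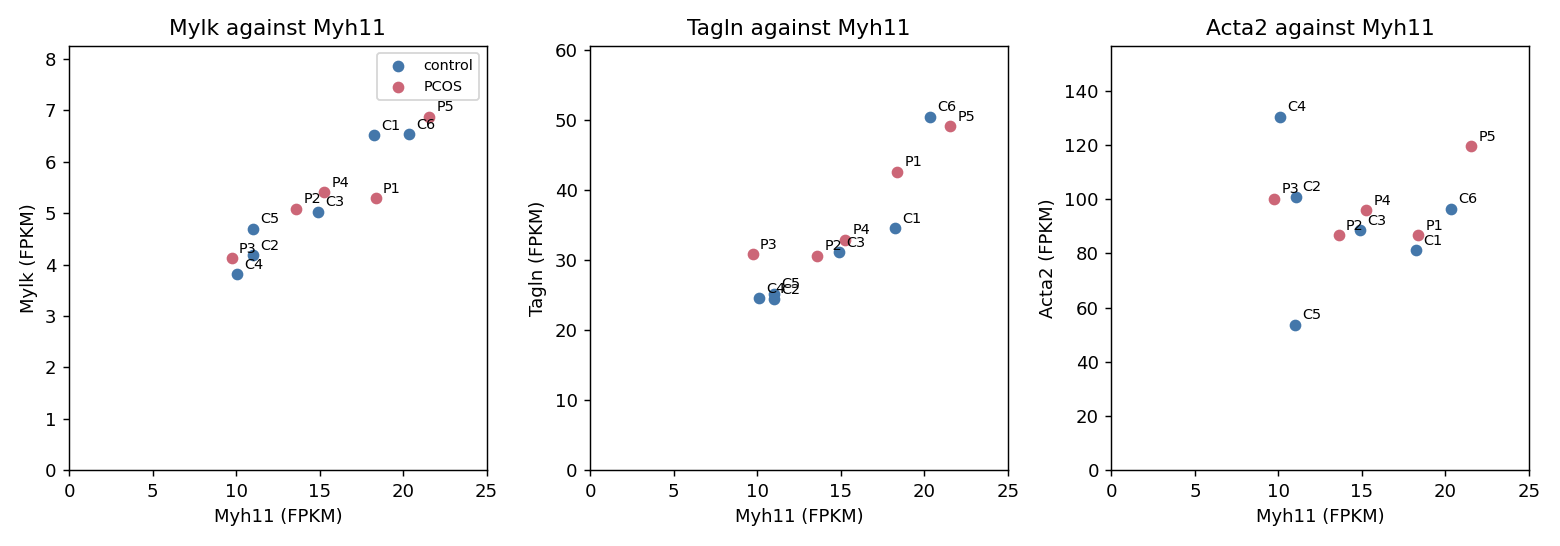
FPKM of Mylk, Tagln and Acta2 (vertical axes) against Myh11 (horizontal axes), 1 point per sample, with C for control and P for PCOS and the replicate number. Mylk and Tagln rise with Myh11 over both groups, and Acta2 spans 53.7 to 130.4 FPKM among the 3 control samples with the least Myh11 (replicates 2, 4 and 5).

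Actin genes are a family of near-identical coding sequences, so how reads were split among them is uncertain. Actc1, the cardiac alpha-actin, averaged 9815 ± 780.6 FPKM over the controls (SD, n = 6) and 10400 ± 433.2 FPKM over the PCOS samples (SD, n = 5), far above Acta2. Over the 11 samples r with Acta2 was 0.243 for Actc1, 0.307 for Acta1, the skeletal alpha-actin, and 0.438 for Actg2, the enteric smooth muscle actin. It was −0.40 for Actb and −0.593 for Actg1, the cytoplasmic actins. Of the 6 actin genes, Acta2 among them, 0 were called, beside 0.138% of all tested rows. Acta1 had the largest difference, from 322.9 ± 115.4 to 228.1 ± 83.3 FPKM (log2 difference −0.50, SE 0.25, limma adjusted p = 0.738).

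Leaving out the 10 genes themselves, the tested rows most like the mean of the 10 genes over the 11 samples were Mrvi1 (r = 0.941), which encodes the smooth muscle substrate IRAG of cyclic GMP-dependent protein kinase, Socs3 (0.933), Cyb5r3 (0.914), Myo1e (0.913), Cxcl12 (0.911), Kat8 (0.908), Igfbp6 (0.907) and Slco2b1 (0.904). Those most opposed were Pln, phospholamban of the cardiomyocyte sarcoplasmic reticulum (r = −0.903), Suclg2 (−0.901), Cpped1 (−0.90), Sdhc, a subunit of succinate dehydrogenase (−0.888), and Ccdc25 (−0.881). A value of at least 0.5 was reached by 17.8% of all tested rows, the 10 genes included, and the median over these rows was 0.113.

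Of the other contractile and pericyte genes listed, none was called, beside 0.138% of all tested rows. Of 25 further contractile and cytoskeletal genes, 23 had a row and 22 were tested; 0 were called, with a median log2 difference of 0.06 (0.14 without control replicate 6) beside 0.0017 over all rows. Tpm1, a tropomyosin that cardiomyocytes also express at a high level, had the smallest p: the control mean was 2731 ± 181 FPKM (SD, n = 6) and the PCOS mean 3104 ± 155 FPKM (SD, n = 5), a log2 difference of 0.19 (SE 0.06, limma adjusted p = 0.738). Prkg1, the cyclic GMP-dependent kinase that relaxes smooth muscle (−0.16, SE 0.08), and Synpo2, an actin-bundling protein (−0.35, SE 0.19), came next. Of 18 further pericyte genes 15 had a row and were tested, and 0 were called (median 0.08, and 0.13 without control replicate 6). Abcc9, a subunit of ATP-sensitive potassium channels, differed by −0.18 (SE 0.10), the endothelin receptor Ednra by −0.15 (SE 0.09) and Higd1b by 0.23 (SE 0.13).

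Among the regulators listed none was called either, beside 0.138% of all tested rows. All 13 genes of the SRF and myocardin system were tested, and 0 were called (median −0.05). The smallest p-values there belonged to the cardiac transcription factors Nkx2-5 (log2 difference 0.09, SE 0.05) and Mef2c (−0.11, SE 0.06) and to Tead1, a factor that binds MCAT elements (−0.21, SE 0.12). Of 13 Notch ligands, receptors and targets 12 were tested and 0 called (median 0.0009), led by Notch2 (0.08, SE 0.10), the target Hey2 (−0.10, SE 0.12) and the ligand Jag1 (0.06, SE 0.09). Of 5 genes of PDGF ligands and the alpha receptor, Pdgfa (0.10, SE 0.12), Pdgfd (−0.01, SE 0.12) and Pdgfra (−0.01, SE 0.13) were tested and 0 called.

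Markers of the cell types around mural cells were read in the same libraries. Their counts of calls stand beside 0.138% of all tested rows. Arterial and elastic vessel genes summed to between 376.5 and 676.2 FPKM in controls and between 492.6 and 624.4 FPKM in PCOS. Mgp was the largest part of each sum, at 259.3 to 482.9 FPKM in controls and 334.6 to 450.2 FPKM in PCOS. Of 7 tested, 0 were called, led by Fbn1 (log2 difference −0.24, SE 0.13) and Ogn (−0.08, SE 0.06). Fibroblast and myofibroblast markers matter because activated fibroblasts also make Acta2 and Tagln. They summed to between 197.1 and 394.4 FPKM in controls and between 301.5 and 352.7 FPKM in PCOS. Dcn was the largest part of each of these sums, and Postn and Cthrc1 of this list had no matching row. Of 10 tested, 0 were called (Lum −0.22, SE 0.15, and Fap 0.15, SE 0.11). Endothelial markers summed to between 259.3 and 460.4 FPKM in controls and between 335.9 and 407.1 FPKM in PCOS, with 0 of 9 called (Egfl7 0.16, SE 0.12; Cdh5 −0.17, SE 0.14). Cardiomyocyte markers had 0 of 7 called, with Tnnt2 at 0.16 (SE 0.08) and Ryr2 at −0.22 (SE 0.15).

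Control replicate 4, which had the lowest Mylk, Pdgfrb and Rgs5, was also lowest in the summed arterial, fibroblast and endothelial markers, and control replicate 6 was highest in all 3 and in the sum of the 10 genes, at 425.1 FPKM. Control replicate 5 departed from this in its sum, which was the lowest of the 10 genes, at 273.6 FPKM. Its fibroblast sum (361 FPKM) and endothelial sum (405.9 FPKM) were among the higher values. That endothelial sum includes Cldn5 at 62.3 FPKM, against 10.1 to 39.3 FPKM in the other samples. Egfl7, Emcn, Kdr and Tie1 were below their medians over all samples there, and Pecam1, Cdh5, Tek and Esam above. The lowest sum of the 10 genes, in control replicate 5, includes Acta2, which was at its own lowest there, 53.7 FPKM. The mean over the standardised genes without Acta2 was −0.608 SDs in control replicate 5 and lowest in control replicate 4, at −1.22 SDs. The part of tissue makeup in the members' spread was not tested.

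**Figure D5:**
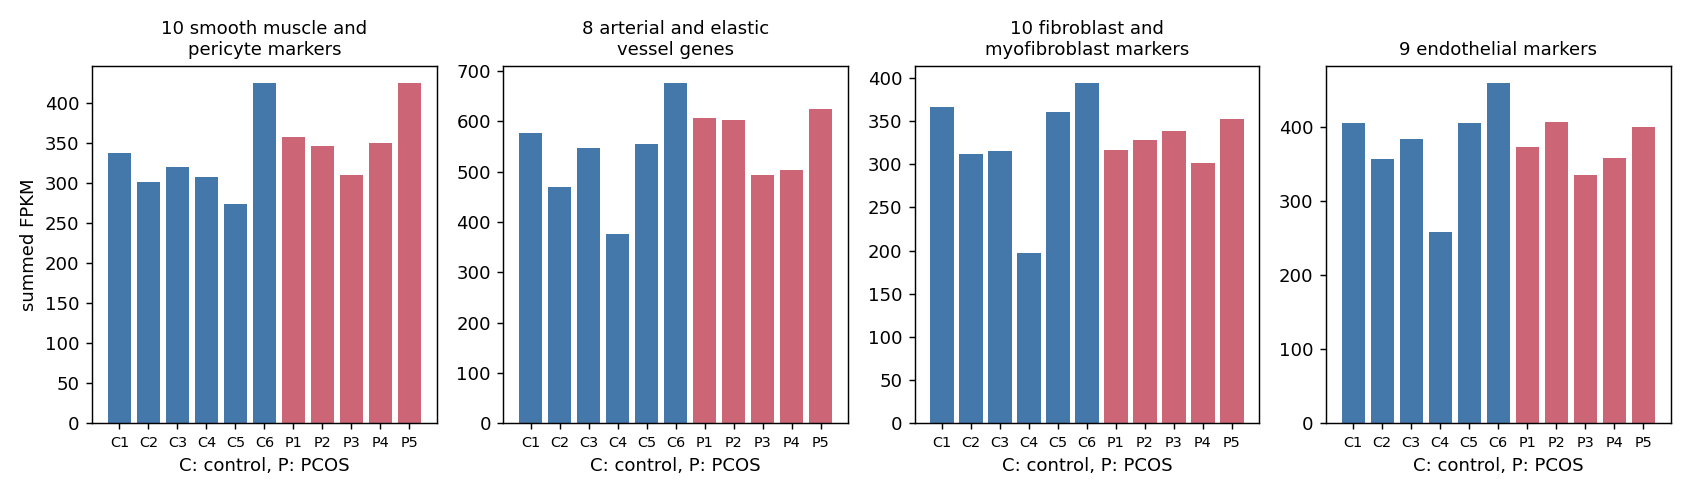
Summed FPKM (vertical axes, from 0) of the 10 smooth muscle and pericyte markers and of 3 lists of neighbouring cell types in each sample, with C for control in blue and P for PCOS in red. Control replicate 6 is the highest bar in all 4 panels, and control replicate 4 is the lowest for the 3 neighbouring lists but not for the 10 genes, of which Acta2 is one of the largest.

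Of 6 tested macrophage markers 1 was called, beside 0.138% of all tested rows. It was Cd68 (log2 difference 1.73, SE 0.17, limma adjusted p = 0.000298), followed by Lyz2 (0.79, SE 0.17, adjusted p = 0.152), and C1qa, C1qb, C1qc and Mrc1 had adjusted p-values of 0.738 to 0.753. The summed macrophage markers were between 129.4 and 249.1 FPKM in controls and between 276.7 and 387 FPKM in PCOS. Erythroid markers summed to between 530.3 and 1528 FPKM in controls and between 849.5 and 2229 FPKM in PCOS. Of 5 tested, 0 were called (Alas2 0.59, SE 0.22, and Hbb-bt 0.80, SE 0.30), but all 5 were higher in PCOS at an unadjusted limma p under 0.05. So were 5 of the 6 macrophage markers, where 6.68% of all tested rows had such a p in either direction. Liver markers had 0 of 9 called, with Apoa1 at −1.85 (SE 1.15) and Ttr at −1.33 (SE 0.90), and differences without control replicate 6 of −0.62 and −0.40. Their part in the members' estimates was not tested.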

How the data were processed

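Poly(A) RNA of 11 mouse heart samples was sequenced from stranded libraries, per the labels' protocols. The authors deposited FPKM per gene model and sample. Alignment and counting tools listed in the submitters' processing notes include HISAT2 2.2.1 and HTSeq 0.13.5, with build mm10; their settings are not given in the sources used here. Rows were named through RefSeq GRCm38.p6 accessions: 13171 matched with their version, 5903 with another version and 2804 did not match (87.2% named). Whole reads were recovered from the steps of the FPKM values in all 21878 rows, within 0.00063 of a whole number; the median over tested rows and samples was 372 reads.

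Group differences were fitted on log2(FPKM + 1) with limma 3.58.1 (eBayes, trend on) under R 4.3.3, over the 10891 rows whose mean reached 1 FPKM, with 6 control and 5 PCOS samples and Benjamini-Hochberg adjustment over all tested rows at 0.05. Fitting and read recovery were tested on simulated data. The members and all gene lists were chosen with earlier results of these data known. Named genes were all 10 members, up to 3 genes of smallest p in each list of pathway genes and up to 2 in each list of other cell types, all actin genes, and the 8 rows most like and 5 most unlike the members' mean; counts are over tested rows. Listed genes without a matching row were not analysed here. A listed group of signalling genes is not reported here. Alternatives changed the pseudocount (to 0.1), the filter (none, or 5 FPKM), the scaling (median-ratio, quantile), the model (replicate block, sample weights, robust prior, voom on recovered reads) and the samples.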

Additional observations from a re-analysis of the deposited data

Results flagged for a closer look

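In the 20 sets of values formed by the 10 genes and the 2 groups, 2 held a sample set far off from the rest of its group by Dixon's criterion, where chance gives about 1 in 20. Cnn1 was at 4.19 FPKM in control replicate 6, with a gap to the next control of 0.673 of the group's range (critical value 0.625). Rgs5 was at 186.1 FPKM in the same library, with a gap of 0.653 of the range. Control replicate 6 is the library that held 1868 FPKM of liver markers.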

How the results depend on the processing

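Under 22 alternatives 0 of the 10 genes were called in any, the smallest adjusted p over 218 values being 0.136 (Rgs5 with the replicate block). The direction held in 204 of these values and turned in 14, the cause of which was not tested. Acta2 was −0.0162 without control replicate 5, −0.00667 without control replicates 2 and 5 and −0.012 without control replicates 2, 5 and 6. Cnn1 was 0.0992 with the replicate block and without control replicate 6, 0.153 with sample weights, 0.0536 without PCOS replicate 2 and 0.000781 without PCOS replicate 3. Mylk was −0.00453 without control replicate 4, −0.0199 without PCOS replicate 5 and −0.0153 without control replicates 2 and 5. Lmod1 was −0.0316 without PCOS replicate 5 and −0.00306 without control replicates 2 and 5, and Myh11 was −0.0186 without the latter. In fits that each left out 1 sample, every member moved by over 1.5 times: Acta2 ranged from −0.0162 to 0.237, Cnn1 from −0.182 to 0.0992, Lmod1 from −0.0316 to 0.169, Mylk from −0.0199 to 0.135, Myh11 from 0.0114 to 0.279, Smtn from 0.085 to 0.285, Notch3 from −0.133 to −0.0184, Rgs5 from 0.0789 to 0.307, Pdgfrb from 0.0667 to 0.17 and Tagln from 0.143 to 0.388. The members' median then ranged from 0.032 to 0.158.

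Over all tested rows 15 were called higher and 0 lower by limma (727 of either direction at an unadjusted p under 0.05). The number higher was 5 with the filter at 5 FPKM, 23 with the replicate block, which also leaves control replicate 6 without a partner and so out of the difference (29 without that sample and with no block), and 24 with sample weights, and it ran from 10 to 29 when each sample was left out. The number lower was 1 with median-ratio scaling, with quantile normalization and with sample weights, 2 with the replicate block, and 0 to 3 when each sample was left out; voom on recovered reads called 12 higher and 0 lower. Same-numbered samples showed no clear pairing. Their deviations correlated between −0.118 and 0.254, and 1 of 5 controls was closest to the PCOS sample of its own number. These 5 correlations cannot exclude a weak pairing. Of 308 counts of calls in the other lists, 4 moved, all for macrophage markers, to between 2 and 4. Cnn1, at a median of 53 reads, has the least depth of the set.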

Other observations

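Acta2 was compared with all tested rows after its values had been seen. Those most like it over the 11 samples were Txnl4a (r = 0.82), Nkain1 (0.799), B3galt6 (0.797), Plpp2 (0.797) and Mpv17l2 (0.792), none of them among the smooth muscle genes listed here. Without control replicates 4 and 5, the samples at the 2 ends of Acta2's range, the values were −0.0531 for Txnl4a, 0.386 for Nkain1, 0.522 for B3galt6, 0.607 for Plpp2 and 0.403 for Mpv17l2.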
